A study of Homo sapiens with 6 samples.

Results

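The RAS GTPases HRAS and NRAS, the RAF kinases ARAF and BRAF, the MEK kinases MAP2K1 and MAP2K2 and the ERK kinase MAPK3 were examined in A673 cells, a human Ewing sarcoma line, with and without induced expression of LOX-PP, the propeptide that is cleaved from the lysyl oxidase precursor. The probes were found through the transcript accession that the array files give for each probe, and every probe was kept apart. They numbered 8 for the 7 genes, of 50599 gene probes on the array, where 20503 genes had a name, with 2 probes for NRAS and 1 for each other gene. Their identifiers are A_23_P98183 for HRAS on chromosome 11, A_23_P63190 and A_33_P3317825 for NRAS on chromosome 1, A_23_P73511 for ARAF on chromosome X and A_23_P42935 for BRAF on chromosome 7. Those of the downstream kinases are A_23_P20248 for MAP2K1 on chromosome 15, A_23_P208835 for MAP2K2 on chromosome 19 and A_23_P37910 for MAPK3 on chromosome 16. The control group, A673/TR/empty, carried a tetracycline repressor (TR) and an empty lentiviral vector, and the other group, A673/TR/LOX-PP, carried the repressor and a LOX-PP vector. LOX-PP was induced with doxycycline (1 µM per the labels) for 72 h. The labels attach the doxycycline step to all 6 samples but name it in the source of the LOX-PP samples only, so the treatment of the controls is not settled. Each group had 3 arrays from separate experiments. The cells came from stable lines selected after infection, and which clone or population was put on the arrays is not given in the sources used here, so construct and line cannot be told apart.

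RAS proteins are membrane-bound switches that are on when they hold GTP. In that state they recruit RAF kinases to the membrane, RAF phosphorylates MEK, MEK phosphorylates ERK, and ERK acts on cytoplasmic kinases and on transcription factors. The flow through this chain is set mostly by GTP loading, phosphorylation and feedback. The arrays measured transcript levels alone and say nothing of how much ERK was phosphorylated. In Ewing sarcoma cells the pathway can act downstream of growth factor receptors, alongside the fusion transcription factor EWS/FLI1. What drives it in A673 cells, including any mutation in its genes, was not measured by these arrays.

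The promoters of HRAS and BRAF are shown because these were the genes among the 7 whose values did not overlap between the groups. Each sequence runs 5′ to 3′ over 300 bases, from upstream of the RefSeq transcript start to shortly after it (GRCh38.p14, both on the minus strand). Capitals mark matches, on either strand, to 4 motifs. The GC box, bound by factors of the SP family, was searched as GGGCGG. The core that ETS factors recognise was searched as CCGGAA. The box bound by the factor NF-Y was searched as CCAAT. For the TATA box the letters were TATAAA. No 2 matches overlapped in either sequence.
HRAS promoter, chr11:535527-535826: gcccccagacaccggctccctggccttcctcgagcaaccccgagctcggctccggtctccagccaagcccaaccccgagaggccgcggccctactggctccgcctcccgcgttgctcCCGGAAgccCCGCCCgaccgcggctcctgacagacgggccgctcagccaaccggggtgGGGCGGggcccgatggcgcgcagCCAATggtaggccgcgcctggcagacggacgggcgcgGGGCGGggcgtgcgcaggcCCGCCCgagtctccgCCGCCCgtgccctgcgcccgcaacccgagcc
BRAF promoter, chr7:140924219-140924518: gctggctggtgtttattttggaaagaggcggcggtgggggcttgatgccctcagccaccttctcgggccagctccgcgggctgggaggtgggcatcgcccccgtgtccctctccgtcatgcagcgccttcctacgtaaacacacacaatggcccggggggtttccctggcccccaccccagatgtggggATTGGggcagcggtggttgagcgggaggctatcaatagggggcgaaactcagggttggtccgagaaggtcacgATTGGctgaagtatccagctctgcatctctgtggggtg
The HRAS window held 5 GC boxes, 1 ETS core and 1 CCAAT box and was 78.0% G or C. The BRAF window held 2 CCAAT boxes and no GC box or ETS core, at 63.0% G or C. Of 35116 promoter windows of this length, 45.0% held a GC box, 17.2% an ETS core, 34.6% a CCAAT box and 11.5% a TATA box, and the median G or C content was 58.7%. Among the other genes, the NRAS window held 3 GC boxes, the MAPK3 window 8 and the ARAF window none. MAP2K1 and MAP2K2 have 2 windows each in this table, of which the first held 3 and 2 GC boxes. None of these windows held the letters of the TATA box. The matches describe the sequence and were not tested as binding sites.

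All 8 probes were well above background on all 6 arrays. The values are log2 signals relative to the 75th percentile of each array, so that 0 is the signal which 75% of the probes did not exceed, and levels are compared between arrays for 1 probe and not between probes. No probe of the 7 genes passed the test of LOX-PP against control (limma, Benjamini-Hochberg adjusted p under 0.05 over 32647 tested probes), beside 5.65% of all tested probes. At an unadjusted p under 0.05 there was 1 of the 8, beside 21.3% of all tested probes. The groups did not overlap for 2 of the 8, beside 29.5% of all tested probes. The shares of the 8 probes were therefore no higher than those over the array. The methods' t-test, run on the same values, also passed none after adjustment, with 2 at an unadjusted p under 0.05. The share of all tested probes at that level by the same test is not given here, so this count has no share beside it. The median of all tested probes was itself shifted by 0.13 (log2) in the LOX-PP arrays. Differences are given below as measured and, where so named, relative to that shift. Relative to it, 7 probes of the 8 had a lower mean in LOX-PP and 1 a higher mean. Under quantile normalization, where the median of all tested probes differed by −0.034, the split was 4 and 4, so the balance of directions depended on the scaling.

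The 6 arrays held 58717 gene spots each, none saturated, of which 56.9 to 74.8% were well above background, and the number of arrays limits the precision of all values. Correlations between arrays of 1 group were from 0.953 to 0.993. LOX-PP replicate 1 was hybridised on slide 2 and the other 5 arrays on slide 1. Over all tested probes it lay below the mean of LOX-PP replicates 2 and 3 by a median of 0.19 (a log2 difference of −0.19), and 15.9% of the tested probes lay there by 1 log2 unit or more. The 8 genes listed as Ewing sarcoma markers, CD99, NKX2-2, NR0B1, STEAP1, PRKCB, CCK, LIPI and EWSR1, were well above background on all 6 arrays, with group means from 0.27 to 6.15. They were not all alike in the groups. CCK had means of 2.80 in the controls and 0.27 in LOX-PP, and NKX2-2 of 1.03 and 2.01. The 6 markers of other lineages had group means from −7.17 to −2.77. Of these 6, PTPRC, CD3E, EPCAM and VWF were well above background on all 6 arrays, PECAM1 on 5 and the epithelial marker CDH1 on 0, so their flags do not show that such transcripts were absent. The probe of LOX, the gene that LOX-PP is part of, read −0.09, 0.36 and 0.10 in the controls and −0.12, −0.69 and −1.29 in LOX-PP (adjusted p = 0.218, limma). It gave no check of the labels by a higher signal, and the directions below rest on the labels. In RNA from whole cultures, a change in every cell and a change in a share of the cells cannot be told apart.

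HRAS is a RAS isoform that shuttles between the Golgi and the plasma membrane by palmitoylation. It read 3.48, 3.32 and 3.22 in A673/TR/empty replicates 1 to 3 and 2.74, 2.72 and 2.69 in A673/TR/LOX-PP replicates 1 to 3. Every LOX-PP array lay below every control array, with a gap of 0.47 between the nearest pair. The means were 3.34 ± 0.13 and 2.72 ± 0.03 (SD, n = 3), a log2 difference of −0.62 (SE 0.20, 95% interval −1.09 to −0.15), or 0.651-fold. The test over all probes did not call it (adjusted p = 0.131, limma), and an exact two-sided permutation test of the 6 values gave p = 0.1, the smallest that 3 against 3 allow. Relative to the median of all tested probes the difference was −0.75. Probes in the same signal decile, by mean signal over the arrays, had a median difference of −0.12. Without LOX-PP replicate 1 the difference was −0.63. The HRAS probe was printed in 10 spots on each array, whose SD within an array was from 0.0340 to 0.0625. These spots read the same RNA and are not replicates of a group. Over 1003 other genes of chromosome 11 the median difference relative to all tested probes was −0.27, with 69.4% lower in LOX-PP, beside a median of −0.093 over the genes of all chromosomes. Their part in the HRAS difference was not tested.

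**Figure D1:**
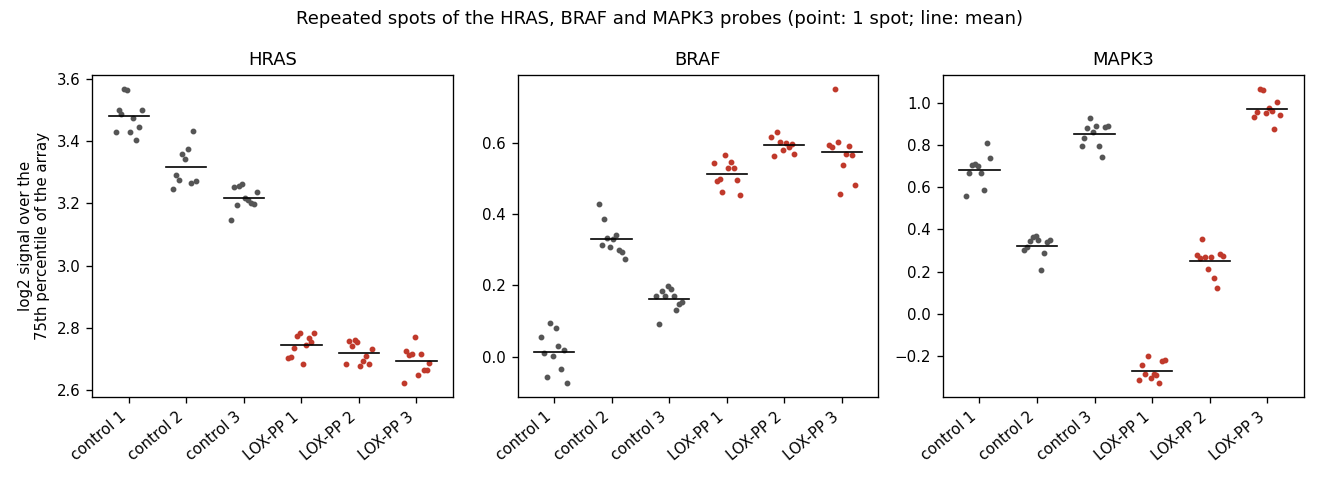
Log2 signal over the 75th percentile of the array in the single spots of HRAS, BRAF and MAPK3, the 3 genes of the 7 whose probe was printed in 10 spots per array, with 1 column of points per array and a line at its mean. For HRAS every spot of the LOX-PP arrays lies below every spot of the control arrays, and for BRAF every spot above.

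NRAS, the RAS isoform of the same switch family that is often altered in melanoma and leukaemia, was read by 2 probes. The first gave 1.71, 1.71 and 2.21 in the controls and 1.63, 1.66 and 1.93 in LOX-PP. The second gave 1.00, 1.06 and 1.40 in the controls and 1.46, 1.14 and 1.19 in LOX-PP. The groups overlapped on both probes, and the probes had opposite signs. The first differed by −0.14 (SE 0.24, 95% interval −0.70 to 0.43, adjusted p = 0.789 in limma) and the second by 0.11 (SE 0.22, interval −0.43 to 0.64, adjusted p = 0.828). Relative to all tested probes these were −0.26 and −0.02. Over the 6 arrays the correlation of the 2 probes was 0.37, given as a description of probes that share the arrays. With these intervals no change in the level of NRAS was resolved.

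BRAF, the RAF kinase with the highest basal activity toward MEK, read 0.01, 0.33 and 0.16 in the controls and 0.51, 0.59 and 0.57 in LOX-PP. Every LOX-PP array lay above every control array, by at least 0.18. The means were 0.17 ± 0.16 and 0.56 ± 0.04 (SD, n = 3), a difference of 0.39 (SE 0.20, 95% interval −0.09 to 0.87), or 1.31-fold, with an adjusted p of 0.317 in limma. The exact two-sided permutation p was 0.1. Relative to all tested probes the difference was 0.26, and without LOX-PP replicate 1 the measured difference was 0.41. Its 10 spots per array had an SD from 0.0218 to 0.0787. The other genes of chromosome 7 had a median difference of −0.023 relative to all tested probes.

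ARAF, a RAF kinase with weak activity toward MEK that also binds the kinase MST2, read 1.10, 1.06 and 1.09 in the controls and −0.01, 1.00 and 1.52 in LOX-PP. The controls lay within a narrow band (1.08 ± 0.0187, SD, n = 3) and the LOX-PP arrays spread to both sides of it (0.84 ± 0.78). The difference was −0.25 (SE 0.39, 95% interval −1.17 to 0.68, adjusted p = 0.765 in limma). Without LOX-PP replicate 1 it was 0.18, so its sign rested on that array.

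MAP2K1, which encodes the dual-specificity kinase MEK1, read 3.33, 3.13 and 3.37 in the controls and 1.88, 3.08 and 3.36 in LOX-PP. Only the first LOX-PP array lay clearly apart. The difference was −0.50 (SE 0.40, 95% interval −1.44 to 0.43, adjusted p = 0.514 in limma) with all arrays and −0.059 without LOX-PP replicate 1. MAP2K2, which encodes MEK2, read 3.28, 3.40 and 3.39 in the controls and 2.77, 3.40 and 3.74 in LOX-PP. Here too the first LOX-PP array was the lowest, while the third was the highest of all 6. The difference was −0.05 (SE 0.29, 95% interval −0.74 to 0.63, adjusted p = 0.943 in limma), and 0.21 without LOX-PP replicate 1.

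MAPK3, which encodes the kinase ERK1, read 0.68, 0.32 and 0.85 in the controls and −0.27, 0.25 and 0.97 in LOX-PP. The LOX-PP arrays spanned the whole range of the controls and beyond it on both sides. The difference was −0.30 (SE 0.35, 95% interval −1.14 to 0.53, adjusted p = 0.672 in limma), and −0.0080 without LOX-PP replicate 1. Its 10 spots per array had an SD from 0.0436 to 0.0760, and the 3 LOX-PP arrays had an SD of 0.62.

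ARAF, MAP2K1, MAP2K2 and MAPK3 shared this shape across the arrays. LOX-PP replicate 1 lay below the mean of LOX-PP replicates 2 and 3 by log2 differences of −1.28, −1.34, −0.80 and −0.88 in the same order. The median over all tested probes was −0.19. The correlations between the 4 probes over the 6 arrays were from 0.834 to 0.973, and over the 5 arrays without LOX-PP replicate 1 from 0.275 to 0.968. These are descriptions of probes that share arrays and were grouped after their values were seen. The slide holds 1 LOX-PP array and no control array, so slide and sample cannot be told apart for that array. The 95% intervals of these 4 genes are wide and do not show that the levels were alike in the groups.

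**Figure D2:**
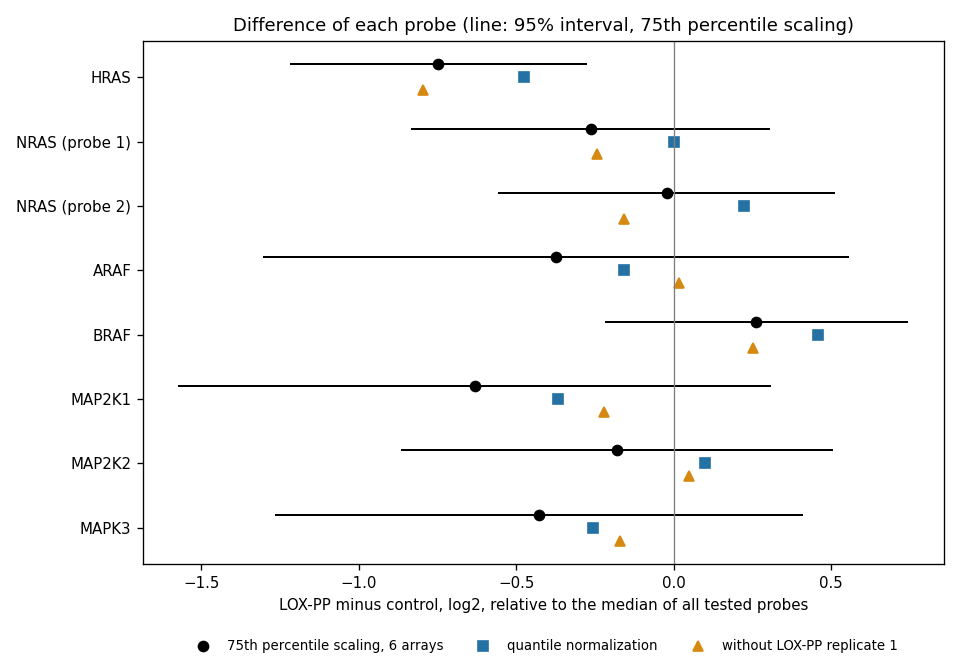
Difference of each of the 8 probes, LOX-PP minus control in log2 units relative to the median of all tested probes, with the line at the 95% interval of the 6 arrays scaled to the 75th percentile and further points for quantile normalization and for the arrays without LOX-PP replicate 1. HRAS is at −0.75, −0.47 and further left without LOX-PP replicate 1, BRAF is on the right in all 3 settings, and the points of the other probes lie on both sides of 0 or move toward it.

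Genes around the chain were described by 8 lists, 80 genes in all, of which 79 were on the array and 76 were tested by their brightest probe. The test called 1 higher and 4 lower in LOX-PP, 5 of 76 beside 7.05% of all 16598 genes taken the same way. Of the 76, 2 entered the test through 1 group alone, MRAS through LOX-PP and MAPK10 through the controls. The other 74 gave 0 called higher and 4 called lower. Of all 76, an unadjusted p under 0.05 was found for 14, beside 23.6% of all genes. The groups did not overlap for 25 of the 76, beside 33.6% of all genes. Both counts include MRAS and MAPK10. The median of the 76 relative differences was −0.34, and that of all genes −0.093. After the median of each gene's signal decile was taken off, the same medians were −0.15 and −0.019. Relative to all tested probes 55 were lower and 21 higher, and under quantile normalization 49 and 27, with a median of −0.12. These counts rest on the brightest probe, and dimmer probes of some genes, such as NF1 and RPS6KA2, lay the other way. The share of all genes with a lower relative mean was not counted. With no filter on dim probes, which moves the reference median, the median of the 76 was −0.52.

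In the family around HRAS and NRAS, 9 further genes were tested, with 1 called higher and 2 called lower, beside 7.05% of all genes called. The median relative difference was −0.51 (−0.23 under quantile normalization and −0.25 without LOX-PP replicate 2). MRAS, a RAS-related GTPase that with SHOC2 and a phosphatase lifts an inhibitory mark from RAF, was the gene called higher. In all 3 controls its signal was not well above background (−7.86, −7.65 and −6.06), whereas in all 3 LOX-PP arrays it was (−2.58, −3.07 and −2.35). The LOX-PP mean was at least 13.5-fold higher than a control bound made of, per control array, the lowest signal among probes well above background or the probe's own where higher. The probe entered the test only through the LOX-PP arrays, where it was high, so the call is not support for a difference. The bound holds for the 75th percentile scaling. The fitted log2 difference, which is no bound, was 4.53 there (adjusted p = 0.00488, limma), 3.81 under quantile normalization and 2.30 under normexp, whose offset adds to dim signals. The p belongs to this fitted difference and does not test the bound. RRAS2, the RAS-related GTPase TC21, fell from 2.52, 2.98 and 2.37 to 1.26, 1.17 and 1.54, a relative difference of −1.43 (adjusted p = 0.0324, limma), and its second probe gave −1.39. RRAS2 lies on chromosome 11, with the shift given for HRAS. The LOX-PP arrays all lay below the controls. RHEB, the GTPase that switches on mTORC1, fell from 3.32, 3.59 and 3.08 to 2.11, 2.37 and 1.96 (relative −1.31, adjusted p = 0.0367). Leaving out 1 array at a time ended the call of RRAS2 and of RHEB in 6 of 6 cases (adjusted p from 0.0523 to 0.150 and from 0.0539 to 0.181). With the replicate number as a block neither was called (adjusted p = 0.102 and 0.0768).

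Of the exchange factors and adaptors that load RAS with GTP, 11 of 13 were tested, and 10 of these had a lower relative mean in LOX-PP (9 under quantile normalization). Dimmer probes of PTPN11 (0.03 and 0.12) and SHC1 (0.25), both among the 10, had higher relative means. GAB2, a docking adaptor that couples receptors to SHP2 and RAS, fell from 2.63, 2.83 and 2.32 to −0.28, 0.10 and 0.96, a relative difference of −2.46 (adjusted p = 0.0154, limma). It lost the call without control replicate 1, control replicate 2 or LOX-PP replicate 2 (highest adjusted p 0.0899), and with the replicate block (0.0538). GAB2 too lies on chromosome 11. Among 8 GTPase activating proteins, which switch RAS off, RASA3 fell from 2.92, 3.07 and 2.61 to 1.43, 1.76 and 1.65 (relative −1.38, adjusted p = 0.0273). Leaving out 1 array ended its call in 4 of 6 cases (0.0413 to 0.158), as did the replicate block (0.0811). RASA3 lies on chromosome 13, whose 284 other genes had a median relative difference of −0.82 with 82.0% lower in LOX-PP, and the part of these chromosome shifts in the values of RRAS2, GAB2 and RASA3 was not tested. DAB2IP, of the same list, was not called on its brighter probe (relative 0.051, adjusted p = 0.678), while its dimmer probe gave 1.12 (adjusted p = 0.0281). The methods' t-test called none of these 5 genes.

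**Figure D3:**
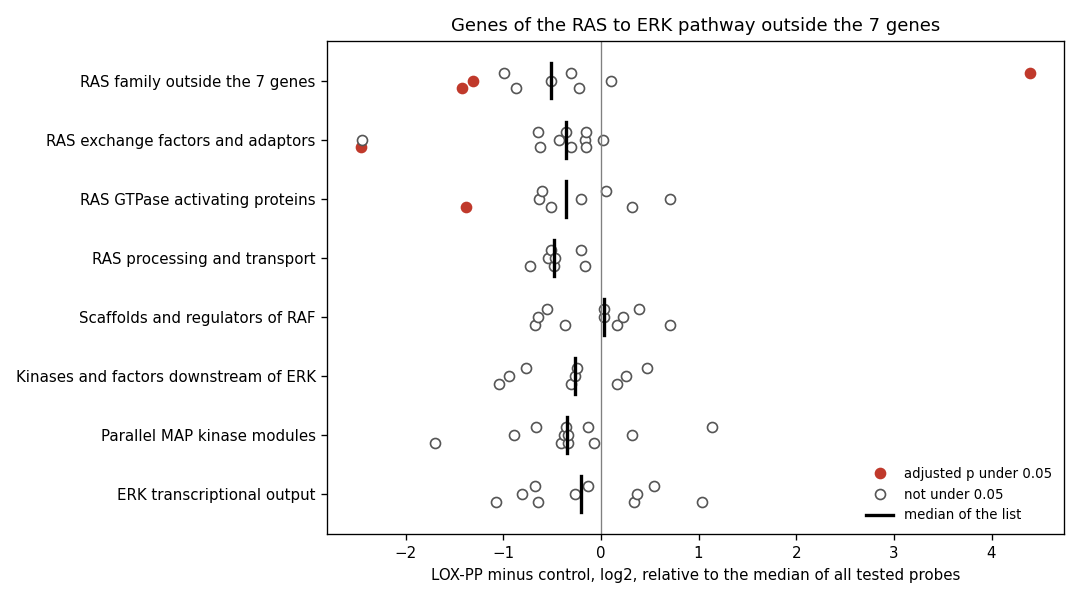
Relative log2 difference, LOX-PP minus control, of the brightest tested probe of each gene in the 8 lists around the 7 genes, with 1 point per gene, filled where the adjusted p was under 0.05 (limma), and a bar at the median of each list. Of the 76 genes 5 are filled, MRAS on the right and RRAS2, RHEB, GAB2 and RASA3 on the left, and the MRAS point is a fitted value against controls below background.

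No gene passed in the other 5 lists by limma or by the methods' t-test. Their counts at an unadjusted p under 0.05 stand beside 23.6% of all genes. By their brightest probes all 7 genes of RAS processing and membrane transport had lower relative means, none at an unadjusted p under 0.05, with a median of −0.48. Quantile normalization gave 5 lower, 2 higher and a median of −0.26. The dimmer probes of GOLGA7, of this list, had higher relative means (0.18 and 0.28). ICMT, which methylates the farnesylated end of RAS, had the smallest p (relative −0.72, adjusted p = 0.276). The 10 tested scaffolds and regulators of RAF had a median of 0.03, which ran from −0.16 without LOX-PP replicate 1 to 0.087 with the filter on all 6 arrays, with 1 at an unadjusted p under 0.05, the RAF scaffold KSR1 (relative 0.71, adjusted p = 0.173). The 9 kinases and factors downstream of ERK had a median of −0.26 (−0.087 under quantile normalization), with 3 at an unadjusted p under 0.05, and the lowest p belonged to RPS6KA3, an ERK-activated S6 kinase (relative −0.94, adjusted p = 0.101). The 12 genes of the parallel JNK, p38 and ERK5 modules had a median of −0.35 (−0.10 under quantile normalization), with 2 at an unadjusted p under 0.05. Of these 2, MAPK9, the kinase JNK2, was nearest the threshold (relative 1.14, adjusted p = 0.0535). The other, MAPK10, entered the test only through the controls, where it was high, so its p is not support for a difference.

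Transcripts that ERK activity is known to drive gave no common direction. Of 10 such genes 4 had higher and 6 lower relative means (5 and 5 under quantile normalization). The median was −0.20 (0.028 under quantile normalization, −0.084, −0.13 and −0.38 without control replicates 1, 2 and 3, and 0.0094 beyond the signal decile). None passed, and 1 had an unadjusted p under 0.05, beside 23.6% of all genes. The groups did not overlap for 4 of the 10, beside 33.6% of all genes. DUSP6, the phosphatase that takes ERK out of its active form, lay between 4.75 and 5.19 in the controls and read 6.07, 5.12 and 5.24 in LOX-PP. The groups overlapped, with LOX-PP replicate 1 the highest (relative 0.37, adjusted p = 0.410, limma). DUSP4, a nuclear phosphatase of the same family, had a relative difference of −0.27 (adjusted p = 0.762). SPRY2 and SPRY4, inhibitors of receptor signalling to RAS, had −0.67 and −0.13 (adjusted p = 0.259 and 0.994), and a dimmer SPRY4 probe gave 0.14. EPHA4, an ephrin receptor, read 0.75, 0.93 and −0.26 in the controls and 2.18, 1.64 and 1.08 in LOX-PP, without overlap (relative 1.03, adjusted p = 0.172). EPHA2, a receptor of the same family, lay the other way without overlap (−0.81, adjusted p = 0.256). Of the ETS factors, ETV5 lay higher without overlap (0.34, adjusted p = 0.272) and ETV4 had −1.07 with overlap (adjusted p = 0.258). PHLDA1, a pleckstrin homology domain protein, lay lower without overlap (−0.64, adjusted p = 0.253), and CCND1, the G1 cyclin, had 0.54 with overlap (adjusted p = 0.405).

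**Figure D4:**
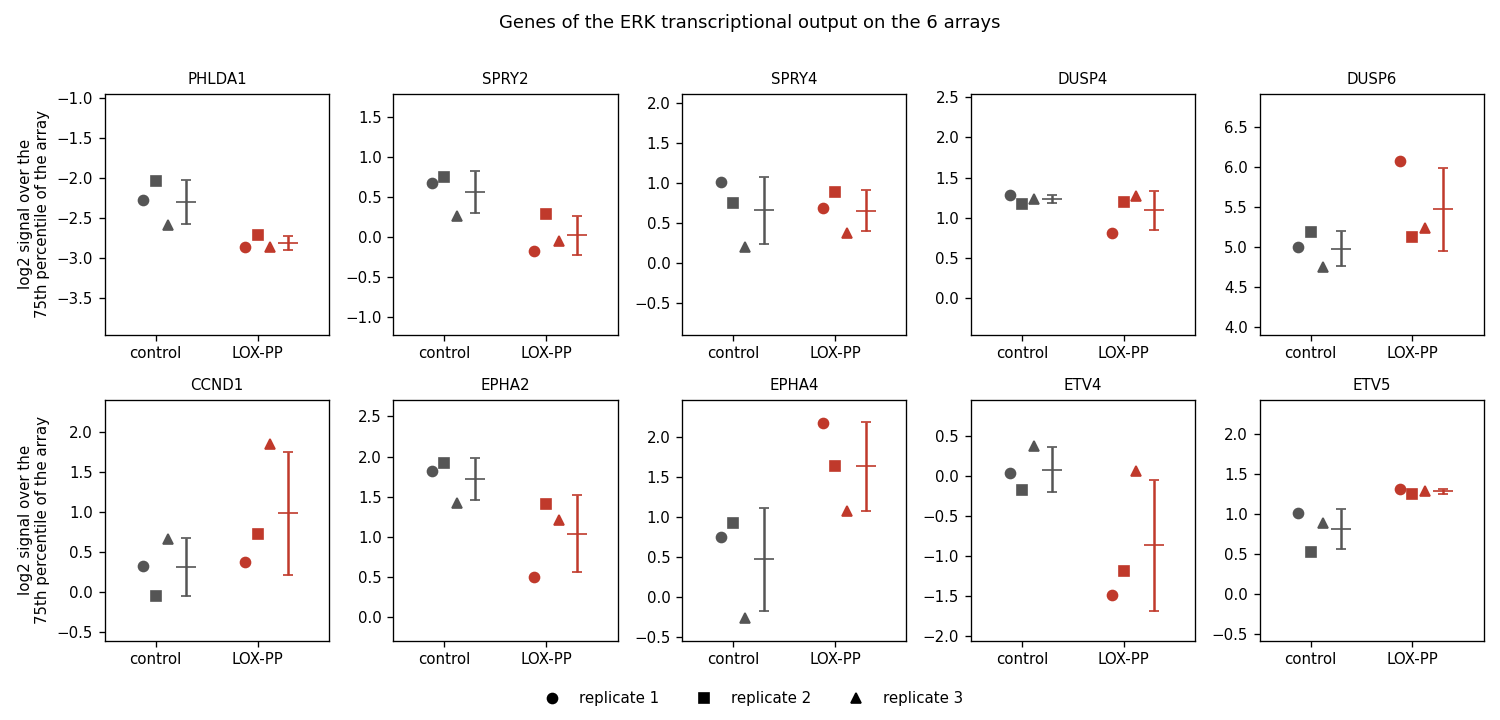
Log2 signal over the 75th percentile of the array for 10 genes that ERK activity is known to drive, with 1 point per array, 2 groups of 3 arrays per gene and bars of 1 SD about each group mean. EPHA4 and ETV5 lie higher and PHLDA1 and EPHA2 lower in all 3 LOX-PP arrays, and the groups of the other 6 genes overlap. Over all genes the groups did not overlap for 33.6%.

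The genes whose signal over the 6 arrays was most like that of each of the 7 genes were found by Pearson correlation over the brightest tested probe of every named gene. For HRAS these were ENTPD6 (r = 0.997) and FARP1 (0.996), and 331 genes exceeded 0.95. For BRAF they were DNAL1 (0.988) and ERCC6 (0.984), with 46 genes over 0.95. NRAS, by its first and brighter probe, was nearest to GSTO1 (0.991) and TBCK (0.984), with 20 genes over 0.95. The second NRAS probe, which correlated with the first at 0.37, was not used here. ARAF was nearest to HECTD3 and GNB2 (both 0.997), MAP2K1 to ACTR5 (0.9996) and LGALS3BP (0.997), MAP2K2 to FTHL17 (0.994) and TBC1D23 (0.992), and MAPK3 to GSTM1 (0.994) and MAP4K2 (0.993). With 6 arrays that share their scaling, such values are found for many genes and are a description alone.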

How the data were processed

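RNA of 6 A673 samples, 3 A673/TR/empty and 3 A673/TR/LOX-PP, was hybridised to Agilent 1-colour arrays. The spot intensity that the authors deposited is what Agilent Feature Extraction (version 10.7, per the submitters' processing notes) gave, with a background-corrected signal and flags. Processed log2 values by the authors were deposited too, and after centring by probe they differed from those used here by at most 0.00587. The scaling method is not given in the sources used here. After removal of control and outlier spots, log2 background-corrected signals were averaged by probe and put relative to the array's 75th percentile. The 32647 probes flagged well above background on 3 or more arrays were fitted with limma (version 3.58.1, R 4.3.3) without a block and without covariates, at a Benjamini-Hochberg adjusted p under 0.05, and the fit was tested on simulated data. Because origins are described only as separate experiments, p-values measure the spread between these samples.

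Gene names came from a RefSeq table by accession (28174 of 50599 probes). Its assembly (GRCh38.p14) differs from that of the array design (hg19), so it gave names and chromosomes, and coordinates are those of the RefSeq promoter table alone. Pathway genes were taken by their brightest tested probe. The genes named are the 7 genes, every called gene of a list or else the one with the smallest p, all ERK output genes and the 2 genes most like each of the 7. DAB2IP, MAPK10, GOLGA7, PTPN11, SHC1, NF1 and RPS6KA2 were added after their values were seen. The 7 genes and the lists were chosen with earlier results of these data known. Of the lists, 3 genes are not reported here. Alternatives were quantile and median scaling, normexp (offset 50), the deposited log2 values, other filters, outlier spots kept, slide and replicate blocks, the methods' t-test and leaving out each array.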

Additional observations from a re-analysis of the deposited data

How the results depend on the processing

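The count of the 8 probes of the 7 genes past the threshold was 0 under all 16 alternatives. These are not separate checks. The slide block repeats the fit without LOX-PP replicate 1. The methods' t-test, the replicate block and the other filters keep the measured differences of the main fit for these probes. The deposited values, median scaling and outlier spots kept nearly repeat it, with HRAS at −0.623, −0.610 and −0.624 beside −0.620. HRAS was lower (from −0.68 to −0.51) and BRAF higher (from 0.31 to 0.47) in LOX-PP under every alternative, with adjusted p from 0.0587 to 0.468 and from 0.143 to 0.691 in limma or the methods' t-test. The second NRAS probe (0.0073 to 0.23), MAP2K1 (−0.80 to −0.059) and MAPK3 (−0.63 to −0.0080) changed no sign as measured, but came near 0 without LOX-PP replicate 1, and relative to all probes the second NRAS probe ran from −0.20 to 0.22. The first NRAS probe was from −0.23 to 0.032 when 1 array was left out, ARAF from −0.59 to 0.18 and MAP2K2 from −0.27 to 0.21. With the slide as a block, which removes LOX-PP replicate 1, ARAF was at 0.18 and MAP2K2 at 0.21, and quantile normalization put MAP2K2 at 0.066. Over all probes, 1844 were called, against 516 with no filter on dim probes, 566 by the methods' t-test and 407 to 2054 when 1 array was left out. Of the pathway genes, 5 were called, against 1 with no filter, 3 with the slide as a block, 0 by the methods' t-test and 1 to 4 when 1 array was left out. Quantile normalization and normexp each called 6, which included the 5. A replicate block gave 850 probes, no probe of the 7 genes and 2 pathway genes, of which 1, MRAS, was among the 5. The deviations of same-numbered arrays correlated at 0.263, −0.383 and 0.224. With 3 arrays a group these values cannot settle whether the samples were paired. The main fit has no block because the labels tie the numbers to no shared day or batch. The cause of these differences was not tested. With 3 arrays a group, differences within the 95% intervals could not be resolved.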
